A study of Homo sapiens with 8 samples.

Results

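The AP-1, BATF and small MAF factors examined here are 10 genes for transcription factors with a basic leucine zipper: FOS, FOSB, FOSL2, JUN, JUNB, JUND, BATF, BATF3, ATF3 and MAFF. All probe sets annotated to exactly 1 of these symbols were taken, which gave 23 of 54613 probe sets and 10 of 19775 genes on Affymetrix U133 Plus 2.0 arrays. FOSL2 had 5 probe sets, JUN 4, JUND 4, ATF3 3 and MAFF 2, and the other genes had 1 each. Probe sets of 1 gene share their target and are not independent of each other. The choice of genes used no measured value, although it was made with earlier results of these data known.

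The arrays were hybridised with total RNA of Reh cells, an established line derived from an acute lymphoblastic leukaemia. The 4 groups were Reh cells transfected with IRF5-4D and IKKβ(EE) together (the combination), with IRF5-4D alone, with IKKβ(EE) alone and with control constructs (mock). IRF5-4D is described as a constitutively active variant of the transcription factor IRF5, and IKKβ(EE) as a constitutively active variant of the kinase that activates NF-κB. Each group held 2 arrays, numbered 1 and 3 and described as biological duplicates. All groups come from 1 cell line, and the share of transfected cells and the time to harvest are not stated.

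Proteins with a basic leucine zipper bind DNA as pairs. FOS and JUN proteins pair to form AP-1, an activator at short palindromic sites that responds to growth factors, stress and cytokines, and many of its genes are transcribed within minutes of a stimulus. BATF and BATF3 lack an activation domain, pair with JUN proteins, and in lymphocytes and dendritic cells bind composite sites together with IRF4 or IRF8. ATF3 is a stress-induced factor of the same superfamily. MAFF is a small MAF protein, which also lacks an activation domain and pairs with CNC factors such as NFE2L2. Raised JUNB, BATF and BATF3 are known features of Hodgkin lymphoma cells.

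Promoter sequence is shown for the genes that rose on at least 1 probe set and had a RefSeq window (MAFF, FOSL2 and JUNB). It is also shown for JUND, which read below mock on 3 of its 4 probe sets without passing the main test. Each runs 5′ to 3′ on the gene's strand from 250 bases before the RefSeq start to 30 bases from it (GRCh38.p14). Capitals mark matches to the motifs searched. The first MAFF window lies at chr22:38201744-38202023 on the plus strand, the second at chr22:38202770-38203049 on the plus strand, FOSL2 at chr2:28392608-28392887 on the plus strand, JUNB at chr19:12791236-12791515 on the plus strand and JUND at chr19:18281593-18281872 on the minus strand.
MAFF, first window: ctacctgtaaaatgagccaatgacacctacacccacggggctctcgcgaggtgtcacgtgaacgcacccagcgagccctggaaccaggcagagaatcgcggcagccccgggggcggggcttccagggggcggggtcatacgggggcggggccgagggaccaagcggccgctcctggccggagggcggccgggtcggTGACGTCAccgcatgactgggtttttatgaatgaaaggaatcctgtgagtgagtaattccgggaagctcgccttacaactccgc
MAFF, second window: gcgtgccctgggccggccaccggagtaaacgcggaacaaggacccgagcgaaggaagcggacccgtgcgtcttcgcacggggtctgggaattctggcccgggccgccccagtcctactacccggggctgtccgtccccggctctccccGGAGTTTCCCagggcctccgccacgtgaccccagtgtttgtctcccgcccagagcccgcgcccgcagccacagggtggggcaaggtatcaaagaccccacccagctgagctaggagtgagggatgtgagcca
FOSL2: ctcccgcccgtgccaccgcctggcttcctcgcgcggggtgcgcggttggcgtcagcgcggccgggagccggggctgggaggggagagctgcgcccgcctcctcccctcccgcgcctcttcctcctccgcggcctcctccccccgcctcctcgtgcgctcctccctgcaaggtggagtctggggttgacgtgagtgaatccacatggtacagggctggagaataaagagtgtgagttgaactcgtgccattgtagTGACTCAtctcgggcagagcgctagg
JUNB: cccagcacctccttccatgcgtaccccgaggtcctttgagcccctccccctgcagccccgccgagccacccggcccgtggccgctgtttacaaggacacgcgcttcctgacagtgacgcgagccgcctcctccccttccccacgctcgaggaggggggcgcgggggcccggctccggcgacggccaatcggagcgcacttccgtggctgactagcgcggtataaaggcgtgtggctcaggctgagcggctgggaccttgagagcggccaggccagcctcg
JUND: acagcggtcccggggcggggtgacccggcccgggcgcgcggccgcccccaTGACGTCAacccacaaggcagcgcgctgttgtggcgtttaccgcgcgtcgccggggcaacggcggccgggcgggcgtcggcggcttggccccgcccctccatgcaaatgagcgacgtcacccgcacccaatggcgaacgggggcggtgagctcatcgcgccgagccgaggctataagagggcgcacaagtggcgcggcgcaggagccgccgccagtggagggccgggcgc
Both strands were searched for the AP-1 element TGANTCA, the cyclic AMP response element TGACGTCA, the interferon-stimulated response element (GAAA, any 2 bases, GAAA), the κB motif and the CArG box of serum response factor; no motif contains another. Of the 10 genes 9 had a window, and BATF3 had none. The AP-1 element was found in 1 of the 9 genes (FOSL2), against 7.35% of 35116 RefSeq windows of this length. The cyclic AMP response element was found in 2 genes, 54 bases before the first MAFF start and 200 bases before the JUND start, against 1.85% of windows. The κB motif was found in 1 gene, 102 bases before the second MAFF start on the opposite strand, against 5.6% of windows. The interferon-stimulated response element and the CArG box were found in 0 of the 9 genes, against 3.39% and 1.25% of windows. A match describes these letters only, not a bound site.

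The deposited values were log2 RMA values, with array medians between 5.09 and 5.13 and lower quartiles between 3.67 and 3.73. Precision is limited by having 2 arrays a group. A probe set was called when its limma adjusted p over all 54613 probe sets was under 0.05. The IKBKB probe set that responded to transfection read 11.1 and 9.33 in the combination, 4.68 and 4.60 with IRF5-4D, 12.57 and 10.98 with IKKβ(EE), and 4.80 and 4.06 in mock cells (arrays 1 and 3). No IRF5 probe set changed on that scale. IRF5 on 205469_s_at read 8.002 and 7.82 in the combination, 7.15 and 7.25 with IRF5-4D, 6.95 and 7.13 with IKKβ(EE), and 6.93 and 7.06 in mock cells. It was called higher in the combination, by 0.92 over mock, 0.71 over IRF5-4D and 0.88 over IKKβ(EE) (limma adjusted p of 0.00648, 0.0414 and 0.013). With IRF5-4D alone it read 0.20 above mock and was not called. On another IRF5 probe set, 205468_s_at, the differences from mock were 0.57 with IRF5-4D, 0.49 in the combination and -0.006 with IKKβ(EE). None of these passed (limma adjusted p of 0.688, 0.208 and 0.998). On 239412_at they were 0.05, 0.28 and 0.03 in the same order, also without a call. It is not stated whether these probes lie in the transfected sequence, and they are no check of the construct. The 6 measured B lineage markers averaged between 11.7 and 12.0 per array and the 7 precursor B cell markers between 9.77 and 10.005. The 8 markers of T and NK cells averaged 4.69 to 4.88 and the 7 myeloid markers 4.41 to 4.77. The 8 stromal and epithelial markers averaged 5.56 and 5.39 in the combination, against 4.90 and 4.89 in mock cells; 1 of the 8 rose, CDH1, by 4.96 (SE 0.43, limma adjusted p = 0.000396), and the median difference of the 8 was -0.03. The 3′ minus 5′ difference of the ACTB control probe sets was 1.06 and 1.06 in the combination, against 1.36 and 1.37 in mock cells, and that of GAPDH was 0.22 and 0.24, against 0.30 and 0.29. The part of these differences in the results was not tested.

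**Figure D1:**
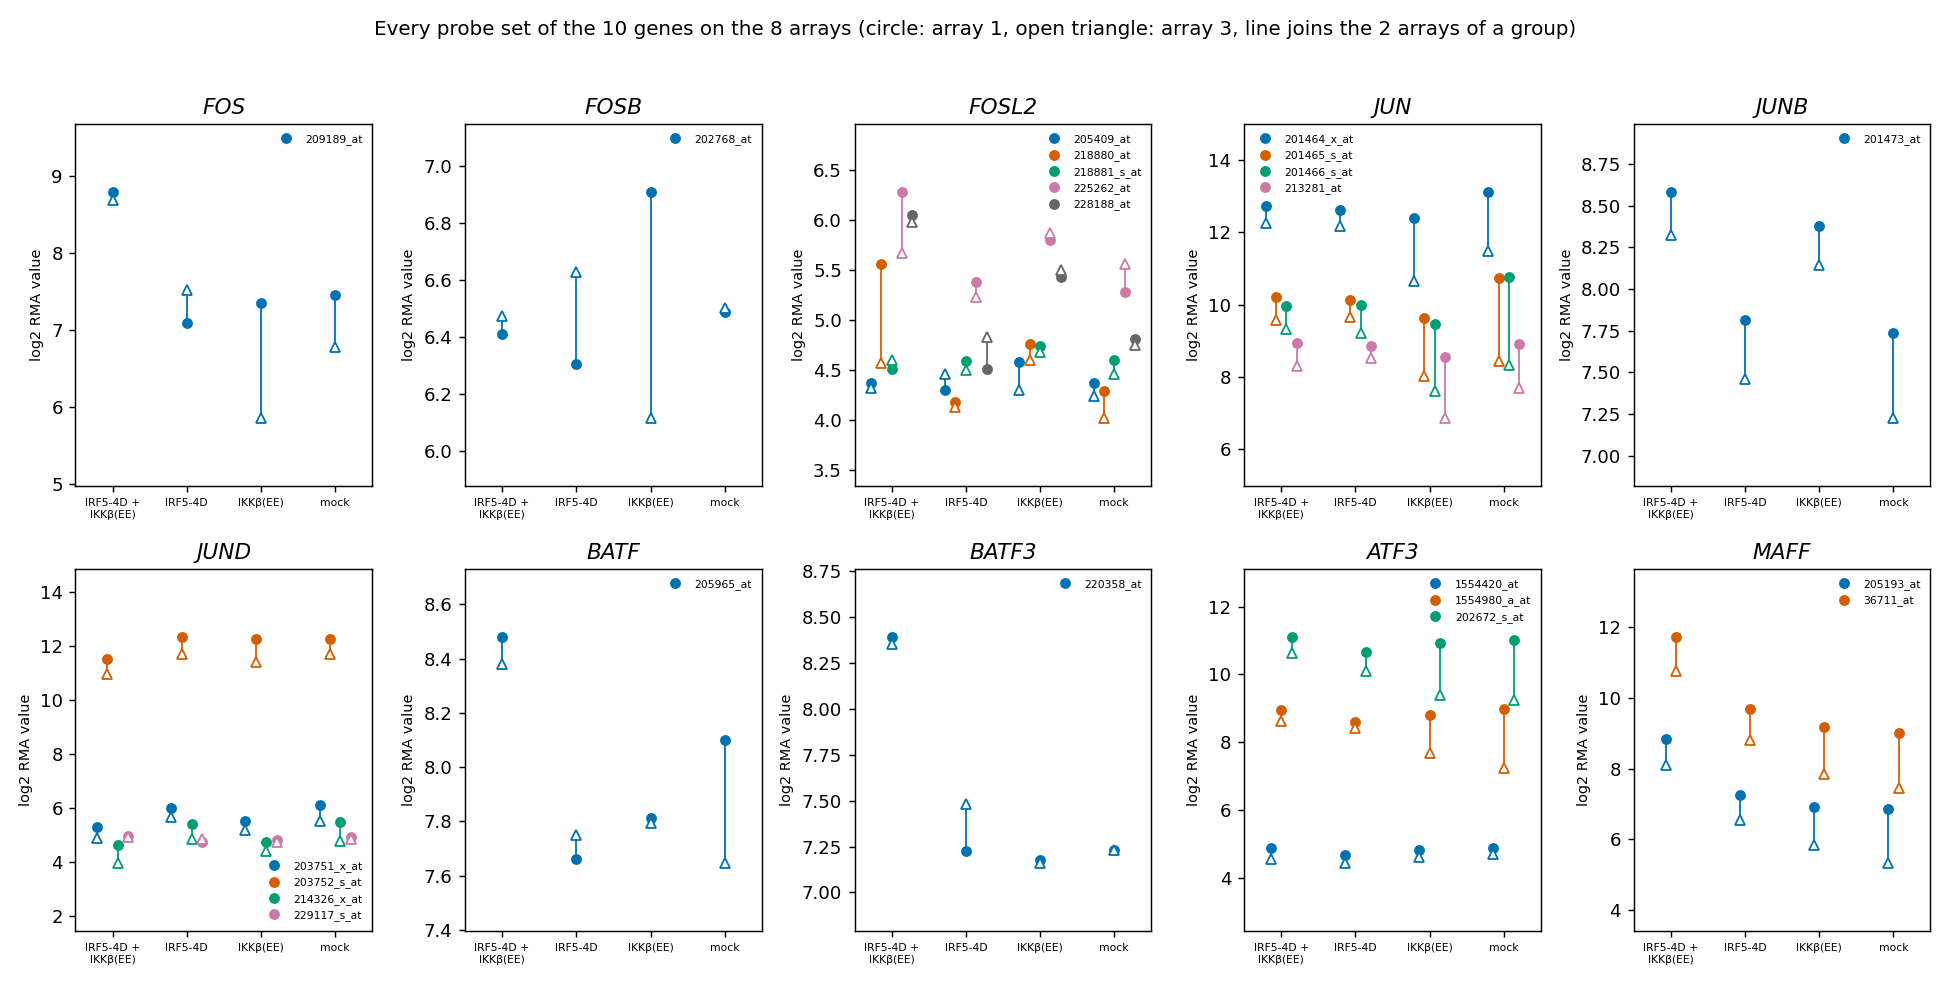
Log2 RMA value (vertical axes, a scale for each gene) of every probe set of the 10 genes in the 4 groups; colours are probe sets, circles array 1 and open triangles array 3, and a line joins the 2 arrays of a group. BATF3 stands at 8.39 and 8.35 in the combination and between 7.16 and 7.48 on the other 6 arrays, while JUN spans 7.61 to 10.8 on one probe set with overlapping groups.

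Compared with mock cells, the combination raised BATF3, FOSL2, JUNB and MAFF, and none of the 23 probe sets was called lower in the main fit. This fit left out the array number. With the array number added to the model as a block, JUND was called lower on 203752_s_at, 203751_x_at and 214326_x_at (limma adjusted p of 0.0114, 0.0146 and 0.0102). MAFF changed most, by 8.05-fold on 1 probe set and 5.21-fold on the other. Without the block, 5 of the 23 probe sets were called higher and 0 lower in limma. Of all probe sets, 2.09% were called and 1.66% called higher. With the block, 10 of the 23 were called, beside 1829 of all 54613 probe sets. The arrays of the combination lay above both mock arrays for 9 of the 23 probe sets, against 17.2% of all probe sets, and below both for 4, against 25.7%. The median log2 difference of the 23 was 0.32, beside -0.04 over all probe sets. Since whole cultures were measured, more cells responding and more RNA per cell cannot be told apart.

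BATF3 encodes a factor needed for cross-presenting dendritic cells in mice. Its probe set read 8.39 and 8.35 in the combination, 7.22 and 7.48 with IRF5-4D, 7.18 and 7.16 with IKKβ(EE), and 7.23 on each mock array. Both combination arrays were above the other 6, with no overlap. BATF3 rose by 1.14 on the log2 scale (SE 0.12, 2.20-fold) over mock, with a limma adjusted p of 0.00149. It differed from mock by 0.12 (95% interval -0.16 to 0.40) with IRF5-4D and by -0.06 (95% interval -0.34 to 0.21) with IKKβ(EE), and neither passed.

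Set against the single constructs, BATF3 was 1.02 (SE 0.12, limma adjusted p = 0.00641) higher in the combination than with IRF5-4D and 1.20 (SE 0.12, limma adjusted p = 0.00163) higher than with IKKβ(EE). The excess over the sum of both single effects was 1.08 (SE 0.17) on the log2 scale, which did not pass over all probe sets (limma adjusted p = 0.109). The call against IRF5-4D was lost without IRF5-4D replicate 1, where the difference was 0.89.

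BATF, the relative of BATF3 that directs T helper 17 differentiation and class switching in mice, read 8.48 and 8.38 in the combination, 7.66 and 7.75 with IRF5-4D, 7.81 and 7.79 with IKKβ(EE), and 8.10 and 7.65 in mock cells. The combination arrays were again above the other 6. The difference from mock was 0.56 (95% interval 0.21 to 0.90) and did not pass (limma adjusted p = 0.123). It was 0.72 (95% interval 0.38 to 1.07) above IRF5-4D and 0.63 (95% interval 0.28 to 0.97) above IKKβ(EE). Neither passed (limma adjusted p of 0.0765 and 0.118). With the array number as a block, BATF passed against IRF5-4D (limma adjusted p = 0.0458). It did not pass against IKKβ(EE) or mock (limma adjusted p of 0.078 and 0.0848).

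MAFF was the member with the largest difference. Its probe set 36711_at read 11.7 and 10.8 in the combination, 9.68 and 8.82 with IRF5-4D, 9.18 and 7.86 with IKKβ(EE), and 9.02 and 7.44 in mock cells. Probe set 205193_at read 8.83 and 8.11 in the combination, 7.27 and 6.54 with IRF5-4D, 6.91 and 5.84 with IKKβ(EE), and 6.85 and 5.33 in mock cells. On both probe sets the combination arrays were above all others, while the single constructs overlapped with mock. The rise over mock was 3.01 (SE 0.57, limma adjusted p = 0.0312) and 2.38 (SE 0.50, limma adjusted p = 0.0476). The differences from IRF5-4D were 1.99 and 1.57 and those from IKKβ(EE) 2.73 and 2.10, and none of these 4 passed (limma adjusted p from 0.0691 to 0.237). With the array number as a block all 4 passed (limma adjusted p from 5.99e-05 to 0.00375). With IRF5-4D alone 36711_at read 1.02 above mock (95% interval -0.27 to 2.31), and with IKKβ(EE) alone 0.28 (95% interval -1.01 to 1.58). In the leave-one-out fits 36711_at ranged from 2.22 without mock replicate 3 to 3.80 without mock replicate 1, and its call was lost without mock replicate 3, without combination replicate 1 (2.53) and without either IRF5-4D array (3.01). The call of 205193_at held in 1 of 8 such fits, with values from 1.63 without mock replicate 3 to 3.14 without mock replicate 1.

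Among FOS family genes, FOSL2 (FRA2), a FOS relative without the strong activation domain of FOS, rose on 1 of 5 probe sets without a block. Probe set 228188_at read 6.05 and 5.98 in the combination, 4.51 and 4.83 with IRF5-4D, 5.43 and 5.50 with IKKβ(EE), and 4.81 and 4.75 in mock cells. The combination was highest, IKKβ(EE) was between it and mock, and IRF5-4D overlapped with mock. The levels with IRF5-4D and in mock cells lay below the array medians. The rise over mock was 1.23 (SE 0.13, 2.35-fold, limma adjusted p = 0.00148). Over IRF5-4D the combination was 1.35 higher (SE 0.13, limma adjusted p = 0.00291). With IKKβ(EE) alone it read 0.68 (SE 0.13) above mock, which did not pass (limma adjusted p = 0.114), and the combination was 0.55 (95% interval 0.25 to 0.85) above IKKβ(EE), which did not pass either (limma adjusted p = 0.113).

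Directly between the single constructs, FOSL2 on 228188_at was the 1 probe set of the 23 called. It was 0.80 (SE 0.13, limma adjusted p = 0.0402) lower with IRF5-4D than with IKKβ(EE), where 0.483% of all probe sets were called and 0.271% called lower. This call was lost whichever of the 8 arrays was omitted, with values from -0.96 without IRF5-4D replicate 3 to -0.64 without IRF5-4D replicate 1. The other FOSL2 probe sets disagreed in size: against mock, 218880_at read 0.91 and 225262_at 0.55 higher in the combination with no overlap of the arrays, and 205409_at and 218881_s_at read 0.04 and 0.02. None of these 4 passed without a block, and with the mean of all probe sets the FOSL2 difference was 0.55 and was not called. With the array number as a block 218880_at passed against mock (limma adjusted p = 0.0476), and the others of these 4 did not.

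FOS, the immediate early partner of JUN, read 8.78 and 8.68 in the combination, 7.08 and 7.52 with IRF5-4D, 7.34 and 5.85 with IKKβ(EE), and 7.44 and 6.77 in mock cells. The combination arrays were above the other 6, whose groups overlapped. FOS was 2.13 (SE 0.41, 4.39-fold) higher in the combination than with IKKβ(EE), with a limma adjusted p of 0.0461. The differences from mock, 1.62 (SE 0.41, limma adjusted p = 0.092), and from IRF5-4D, 1.43 (SE 0.41, limma adjusted p = 0.18), did not pass. With the array number as a block, FOS passed against mock (limma adjusted p = 0.0384) and not against IRF5-4D (limma adjusted p = 0.088). The call against IKKβ(EE) held in 1 of 8 leave-one-out fits, and the difference was 1.39 without IKKβ(EE) replicate 3 and 2.88 without IKKβ(EE) replicate 1.

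FOSB, another immediate early FOS gene, read 6.41 and 6.47 in the combination, 6.31 and 6.63 with IRF5-4D, 6.91 and 6.11 with IKKβ(EE), and 6.49 and 6.50 in mock cells. Its differences from mock were -0.05 (95% interval -0.56 to 0.46) in the combination, -0.03 with IRF5-4D and 0.02 with IKKβ(EE).

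**Figure D2:**
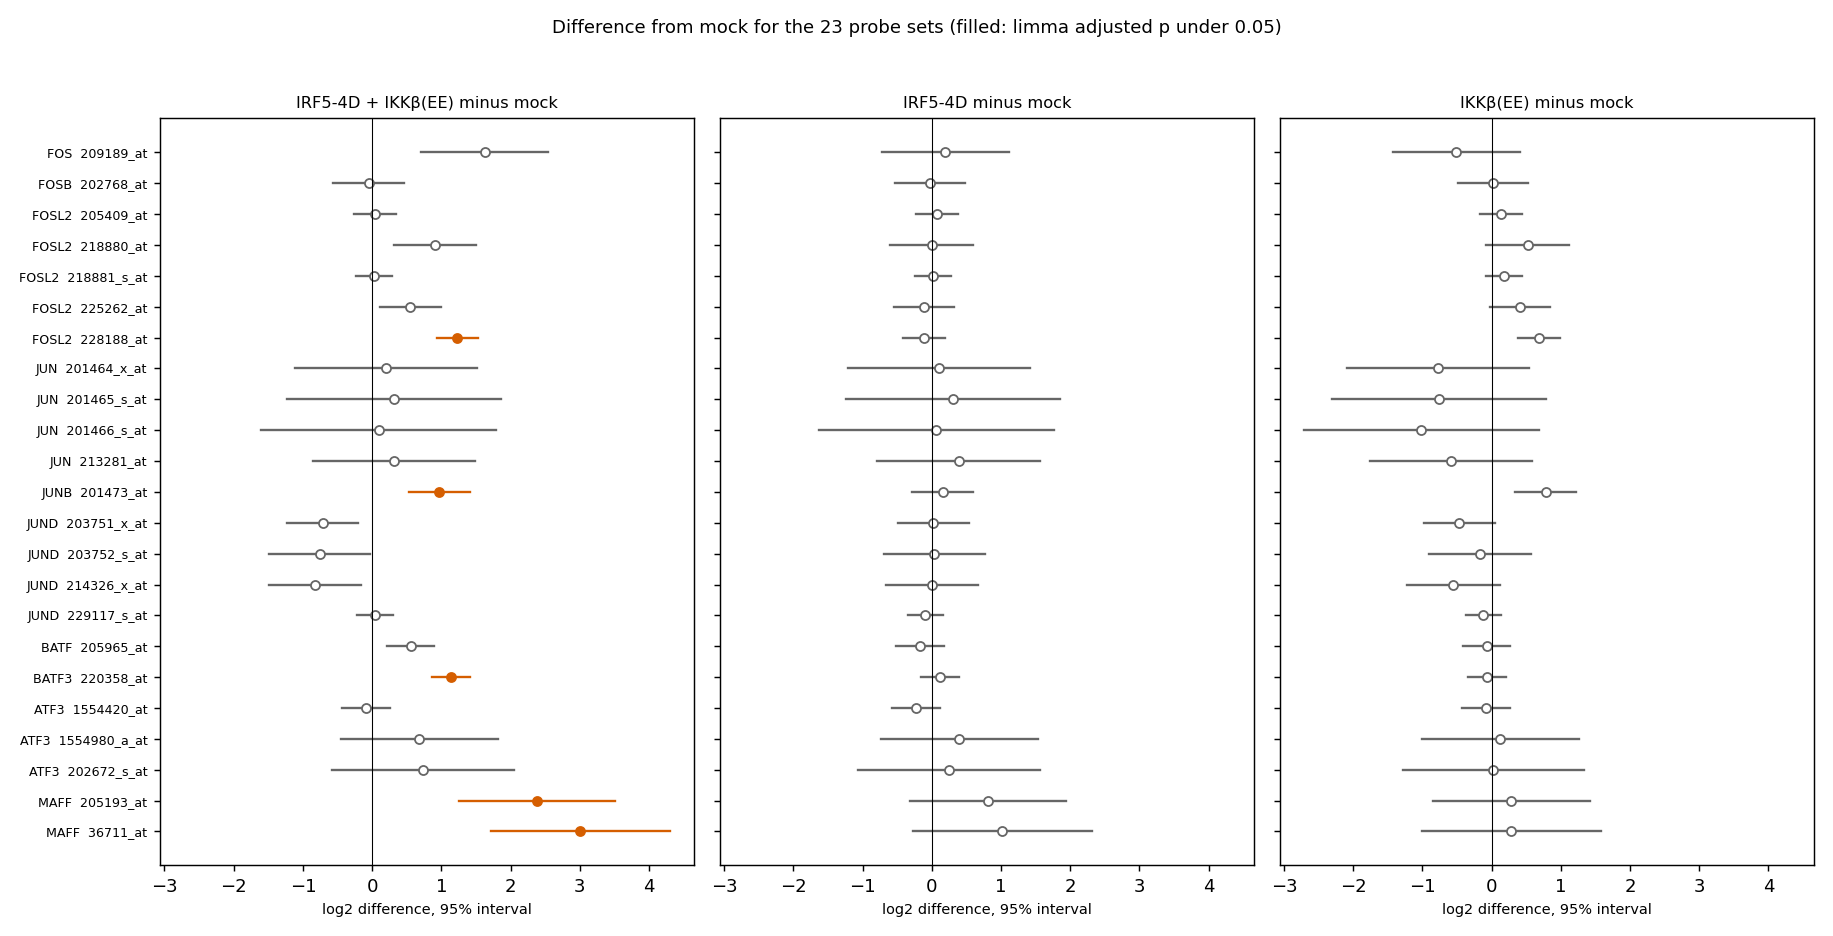
Log2 difference from mock (horizontal axis) with its 95% interval for each of the 23 probe sets, in the combination, with IRF5-4D and with IKKβ(EE); filled points passed limma's test. The 5 filled points are FOSL2 (1.23), JUNB (0.97), BATF3 (1.14) and both MAFF probe sets (2.38 and 3.01) in the combination. With a single construct there is none in this fit, which has no block for the array number.

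The 3 JUN genes did not move together. JUNB, a JUN protein strongly expressed in Hodgkin and anaplastic lymphoma cells, read 8.58 and 8.32 in the combination, 7.82 and 7.46 with IRF5-4D, 8.38 and 8.14 with IKKβ(EE), and 7.74 and 7.23 in mock cells. The combination and IKKβ(EE) arrays overlapped with each other and were above all IRF5-4D and mock arrays. JUNB rose by 0.97 (SE 0.20, 1.96-fold, limma adjusted p = 0.0408) over mock in the combination. With IKKβ(EE) alone it read 0.78 (95% interval 0.34 to 1.22) above mock, which did not pass (limma adjusted p = 0.315). With IRF5-4D alone it read 0.16 (95% interval -0.28 to 0.60) above mock. With the array number as a block, JUNB passed against mock with IKKβ(EE) alone (limma adjusted p = 0.0275) and in the combination (limma adjusted p = 0.00273). The interaction was 0.03 (95% interval -0.59 to 0.66). The call in the combination held in 1 of 8 leave-one-out fits, without mock replicate 1, where the rise was 1.23, and was lost in the others, down to 0.72 without mock replicate 3.

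JUND, the most widely and constantly expressed JUN gene in many tissues, read 11.52 and 10.95 on its brightest probe set, 203752_s_at, in the combination, 12.34 and 11.72 with IRF5-4D, 12.25 and 11.40 with IKKβ(EE), and 12.28 and 11.71 in mock cells. Both combination arrays were below both mock arrays on 3 of its 4 probe sets. The differences from mock on these were -0.76 (95% interval -1.49 to -0.03), -0.71 and -0.82, and none passed (limma adjusted p from 0.186 to 0.331). Against IRF5-4D they were -0.80, -0.73 and -0.83, also without overlap and without a call. With the array number as a block all of these passed. The limma adjusted p then ran from 0.0102 to 0.0146 against mock and from 0.0168 to 0.0222 against IRF5-4D. The fourth probe set, 229117_s_at, read 0.04 against mock. Its levels lay between 4.73 and 4.94 on all arrays, below the array medians. Of the 3 lower probe sets 2, on 203751_x_at and 214326_x_at, carry the suffix _x_at, which marks probes that may bind several transcripts, and read between 3.96 and 6.11 on all arrays, near the array medians or below.

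JUN, whose product activates its own gene, had the widest gap between duplicates of the 10 genes, on 201466_s_at in mock cells. On 201466_s_at it read 9.95 and 9.32 in the combination, 9.99 and 9.22 with IRF5-4D, 9.46 and 7.61 with IKKβ(EE), and 10.8 and 8.32 in mock cells. All 4 groups overlapped. The 4 probe sets differed from mock by 0.09 to 0.32 in the combination, by 0.07 to 0.39 with IRF5-4D and by -1.01 to -0.59 with IKKβ(EE), and none passed. The 95% interval of 201466_s_at in the combination ran from -1.61 to 1.79. Changes of either sign within that range could not be told from no change in the main fit. With the array number as a block the SE of this difference was 0.37, beside 0.75 without it. No JUN probe set passed against mock with the block either. With IKKβ(EE), each array read below the mock array of the same number on 201466_s_at.

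ATF3, which can pair with JUN proteins and often represses, was also variable between duplicates. On 202672_s_at it read 11.1 and 10.6 in the combination, 10.7 and 10.1 with IRF5-4D, 10.9 and 9.38 with IKKβ(EE), and 11.02 and 9.24 in mock cells. The groups overlapped, and the difference from mock in the combination was 0.73 (95% interval -0.58 to 2.04, limma adjusted p = 0.641). Probe set 1554980_a_at read 0.68 (95% interval -0.45 to 1.82) and 1554420_at -0.08 (95% interval -0.43 to 0.26).

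**Figure D3:**
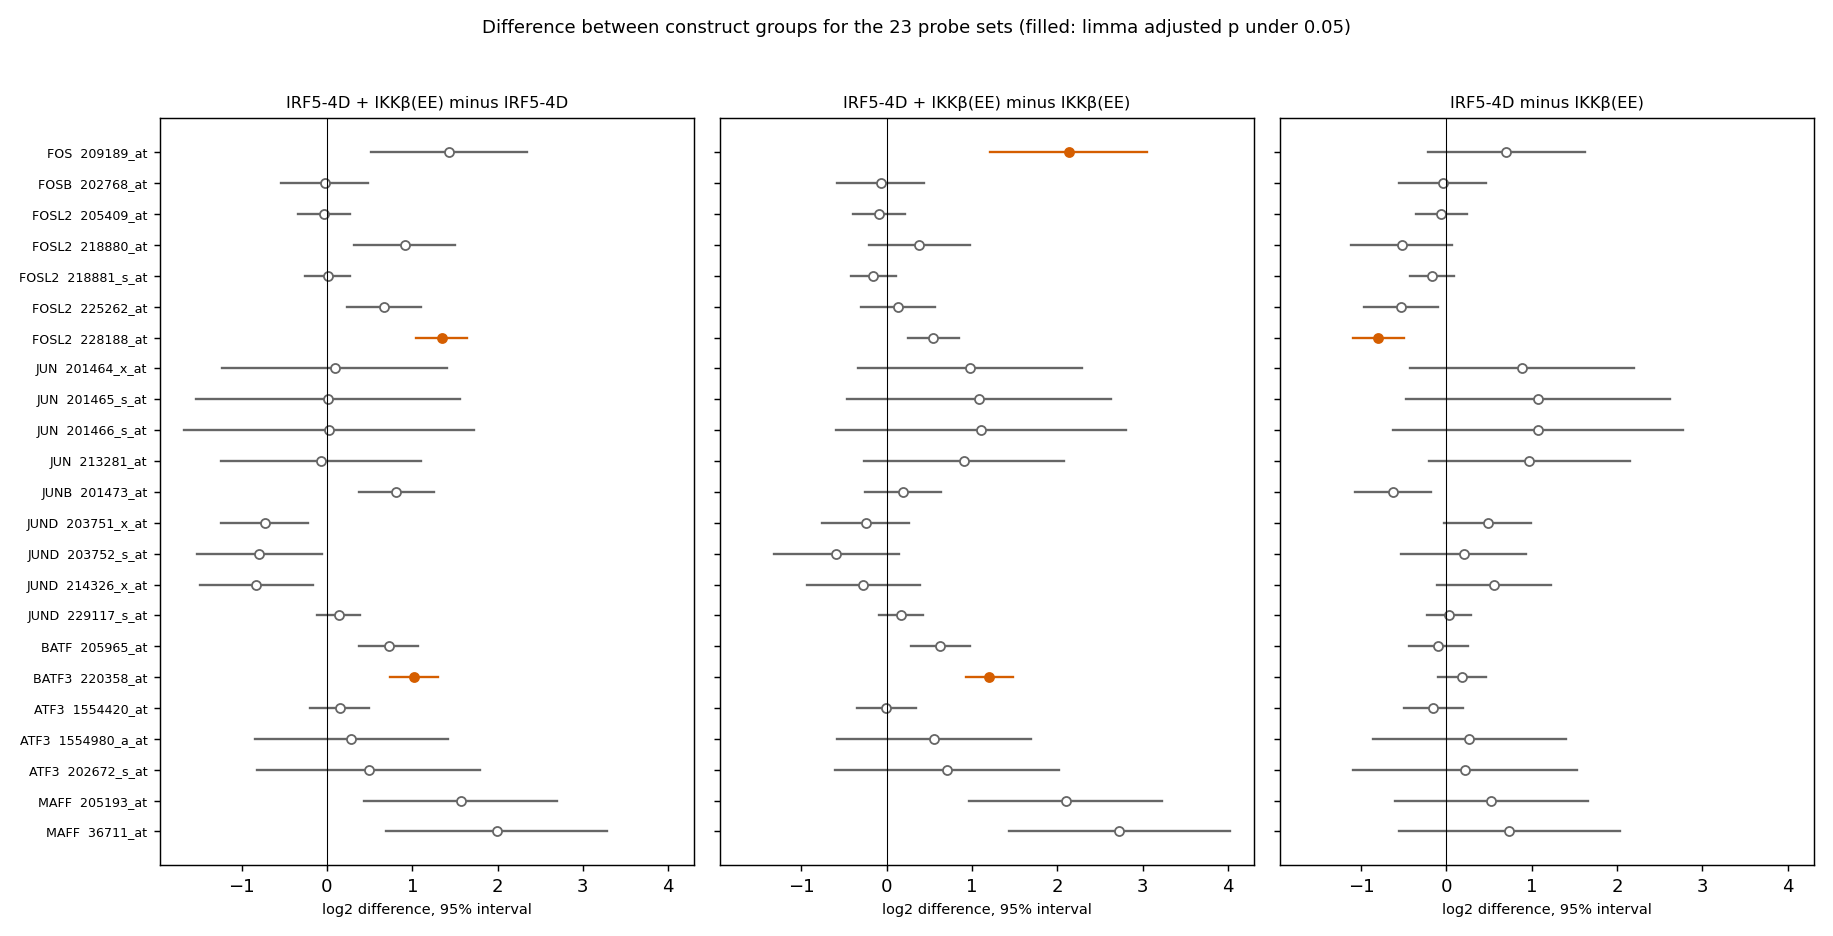
Log2 difference between construct groups (horizontal axis) with its 95% interval for the 23 probe sets: the combination minus IRF5-4D, the combination minus IKKβ(EE), and IRF5-4D minus IKKβ(EE); filled points passed limma's test. BATF3 is filled in both comparisons of the combination (1.02 and 1.20), FOSL2 at 1.35 and at -0.80, and FOS at 2.13.

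With a single construct 0 of the 23 probe sets were called in limma without the array number as a block. For IRF5-4D against mock this stands beside 0.194% of all probe sets, and 0 of the 23 had an unadjusted p under 0.05. For IKKβ(EE) against mock it stands beside 0.302%, and 2 of the 23 had an unadjusted p under 0.05, namely FOSL2 on 228188_at and JUNB. With the block, JUNB alone was called with IKKβ(EE) (limma adjusted p = 0.0275), where 317 of all 54613 probe sets were called. None of the 23 was called with IRF5-4D. The combination against IRF5-4D had 2 called probe sets, both higher, beside 0.842% of all probe sets called and 0.654% called higher. Against IKKβ(EE) it also had 2, both higher, beside 1.11% called and 0.837% called higher. With the array number as a block the counts were 9 against IRF5-4D and 4 against IKKβ(EE). Over all probe sets 953 and 990 were then called. The combination arrays lay above both IRF5-4D arrays for 11 of the 23 probe sets, against 17.9% of all, below both for 3, against 23.4% of all, and above both IKKβ(EE) arrays for 7, against 18.5%. The interaction called 0 of the 23 in limma (0.0623% of all), with 4 at an unadjusted p under 0.05: FOS at 1.94, FOSL2 on 228188_at at 0.66, BATF at 0.80 and BATF3 at 1.08. These comparisons share arrays, so their values for a gene are not independent.

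The duplicates differed in the same direction for many of these probe sets. Array 1 read above array 3 in all 4 groups for 14 of the 23 probe sets, against 8.01% of all probe sets, and by at least 0.5 in all 4 groups for 4, against 0.0879%. These 4 were JUN on 201466_s_at, JUND on 203752_s_at and both MAFF probe sets. For JUN on 201466_s_at the gap was 0.63 in the combination, 0.77 with IRF5-4D, 1.85 with IKKβ(EE) and 2.44 in mock cells, beside median absolute gaps of 0.14, 0.14, 0.13 and 0.16 over all probe sets. ATF3 on 202672_s_at had gaps of 0.46, 0.55, 1.55 and 1.78 in the same order, and MAFF on 36711_at 0.96, 0.86, 1.32 and 1.58. For BATF3 the gaps were 0.04, -0.26, 0.02 and 0. The 16 other immediate early genes measured averaged 8.47 and 8.30 in the combination, 8.29 and 7.97 with IRF5-4D, 8.76 and 8.02 with IKKβ(EE), and 8.50 and 7.78 in mock cells (arrays 1 and 3). The 11 stress and handling genes averaged 10.4 and 10.4, 10.2 and 10.1, 10.3 and 9.64, and 10.4 and 9.73 in the same groups. What the numbers 1 and 3 stand for is not stated, and the part of the gap in the results was not tested.

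**Figure D4:**
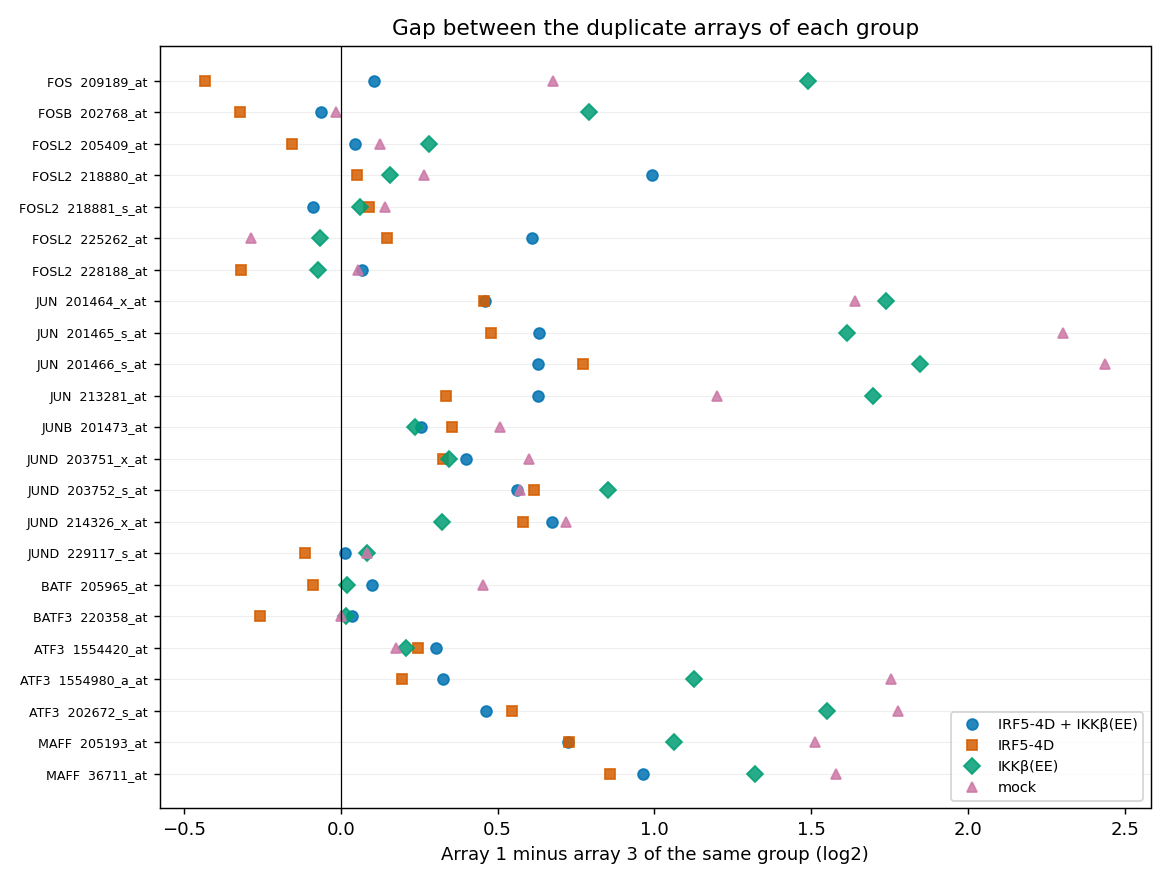
Array 1 minus array 3 of the same group (log2, horizontal axis) for each of the 23 probe sets; symbols are the 4 groups. JUN, ATF3 and MAFF lie to the right of 0 in every group, reaching 2.44 for JUN in mock cells, and BATF3 lies between -0.26 and 0.04.

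Several of the genes neighbour each other in the genome (GRCh38.p14). FOS (chr14:75278828-75282230) and BATF (chr14:75522469-75546992) are 240238 bases apart, with 5 annotated genes between them, of which 1 codes for a protein. That gene is JDP2, whose product dimerises with JUN proteins and represses AP-1. It read 7.24 and 8.22 in the combination, 6.49 and 6.45 with IRF5-4D, 6.72 and 5.75 with IKKβ(EE), and 6.57 and 6.38 in mock cells. FOS, JDP2 and BATF each had both combination arrays above both mock arrays, as did 17.2% of all probe sets. Against mock none of them passed (1.25, SE 0.34, limma adjusted p = 0.116 for JDP2). With the array number as a block, FOS passed (limma adjusted p = 0.0384) and BATF did not (limma adjusted p = 0.0848). The part of their position in these values was not tested. ATF3 (chr1:212565407-212620777) and BATF3 (chr1:212686417-212699840) are 65639 bases apart. BATF3 rose in the combination and ATF3 was not called.

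Among 22 other genes of the ATF, MAF, BACH and CNC groups measured, 2 rose and 0 fell in the combination against mock, beside 2.74% of all genes called on 1 probe set each. Their median log2 difference was 0.07, beside -0.03 over all genes. NFE2L3, a CNC factor and partner of small MAF proteins, read 6.27 and 6.39 in the combination, 5.02 and 5.35 with IRF5-4D, 5.78 and 5.87 with IKKβ(EE), and 4.77 and 5.33 in mock cells. It rose by 1.28 (SE 0.19, limma adjusted p = 0.00842). CREB5, which binds cyclic AMP response elements alone or with JUN, read 6.81 and 7.04 in the combination, 7.71 and 7.15 with IRF5-4D, 6.03 and 6.26 with IKKβ(EE), and 5.77 and 5.85 in mock cells. It rose by 1.11 (SE 0.19, limma adjusted p = 0.0162) in the combination and by 1.62 (SE 0.19, limma adjusted p = 0.0084) with IRF5-4D, where it was the 1 of the 22 called (0.293% of all genes). With IKKβ(EE) 0 of the 22 were called in limma, and 2 had an unadjusted p under 0.05. The small MAF gene MAFG read 0.01 against mock in the combination, where MAFF rose.

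Of 22 kinases and regulators upstream of AP-1, 0 were called in limma in any of the 3 comparisons with mock. At an unadjusted p under 0.05 there were 4 in the combination, 2 with IRF5-4D and 3 with IKKβ(EE). The largest differences in the combination were MAP3K8 at 2.27 (SE 0.63, limma adjusted p = 0.127), a kinase of the ERK pathway released by IKKβ signalling, and MAP3K1 at 0.66 (SE 0.18, limma adjusted p = 0.122). Of 16 other immediate early genes 0 were called in the combination in limma, and 3 had an unadjusted p under 0.05; PPP1R15A read 1.40 and IER5 1.09 above mock. NR4A3, an orphan nuclear receptor, was the 1 called with IKKβ(EE) (0.425% of all genes). It was 1.51 (SE 0.15, limma adjusted p = 0.0013) lower in the combination than with IKKβ(EE).

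Of 17 genes known as AP-1 targets 5 rose and 0 fell in the combination, beside 2.74% of all genes called, with a median log2 difference of 0.17 (-0.03 over all genes). They were PLAU by 4.76 (SE 0.27), PLAUR by 3.14 (SE 0.25), DUSP5 by 2.16 (SE 0.40), VEGFA by 1.72 (SE 0.36) and CCND1 by 1.67 (SE 0.26). Several of these are also known targets of NF-κB. With IRF5-4D 2 of the 17 rose, PLAU and PLAUR (0.293% of all genes called), and with IKKβ(EE) 1, PLAU (0.425% of all genes called). Against IKKβ(EE), 3 of the 17 were called higher and 1 lower in the combination, beside 1.11% of all probe sets called. That share covers all probe sets, while the 17 genes have 1 each. A fit to 1 probe set per gene called 340 of 19775 genes in this comparison. CXCL8 read 7.56 and 7.30 in the combination, 8.37 and 8.05 with IRF5-4D, 11.2 and 10.7 with IKKβ(EE), and 9.39 and 7.93 in mock cells. Of 10 partners and known targets of BATF factors 2 rose in the combination, beside 2.74% of all genes called, with a median of -0.05. IRF4, the partner of BATF at composite sites, read 9.03 and 7.94 in the combination, 6.37 and 6.12 with IRF5-4D, 6.62 and 6.42 with IKKβ(EE), and 6.02 and 5.32 in mock cells. Like BATF3 it was higher in the combination than in each other group, by 2.81 (SE 0.33) over mock, 2.24 (SE 0.33) over IRF5-4D and 1.97 (SE 0.33) over IKKβ(EE), with limma adjusted p of 0.00232, 0.0166 and 0.0248. The chemokine receptor gene CCR6 read 7.03 and 5.51 in the combination, 7.05 and 5.87 with IRF5-4D, 3.55 and 3.49 with IKKβ(EE), and 4.03 and 3.94 in mock cells. CCR6 rose by 2.28 (SE 0.46, limma adjusted p = 0.0394) over mock in the combination. With IRF5-4D alone it read 2.47 above mock, which did not pass (limma adjusted p = 0.136), and the combination was not above IRF5-4D (-0.19, SE 0.46). IRF8 read 0.32 above mock in the combination (SE 0.14, limma adjusted p = 0.358).

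The genes whose values were most like those of MAFF on 36711_at were sought among 560 genes with an SD of at least 0.5 over the 8 arrays. They were UPP1 (Pearson r = 0.976), NAPSA (0.963), LYST (0.961), RASGRP3 (0.957) and ISG20 (0.955). These correlations describe 8 arrays that share 4 groups and carry no test. UPP1, a uridine phosphorylase, read 7.18 and 6.47 in the combination, 6.10 and 5.93 with IRF5-4D, 5.61 and 5.10 with IKKβ(EE), and 5.60 and 4.94 in mock cells. As for MAFF, array 1 read above array 3 in each group.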

How the data were processed

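Gene expression of 8 arrays of Reh cells was analysed, 2 for each of 4 transfections. The deposited values were on the log2 scale and made with RMA, per the submitters' processing notes; RMA equalises the distributions of the arrays, so shifts common to all genes are not visible. Of 54675 rows, 62 control probe sets were left out. Genes were named from the 2016 platform annotation, in which 41091 probe sets had exactly 1 symbol, 1801 several and 11721 none. A model of group means was fitted to 54613 probe sets with limma 3.58.1 (R 4.3.3), with 4 residual degrees of freedom, and p-values were Benjamini-Hochberg adjusted over all of them. It was tested on simulated data. The p-values measure the spread between these duplicates, including any shift that arrays of the same number share. Probe sets of the 10 genes were all listed, and values were printed for those called or described. Other gene lists used the probe set with the highest mean per gene; listed genes without a row of a single symbol were not analysed here. The members and lists were chosen with earlier results of these data known. Promoter windows came from RefSeq (GRCh38.p14). Alternatives covered the choice of probe sets, normalization, variance model, thresholds, replicate block and left-out arrays.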

Additional observations from a re-analysis of the deposited data

How the results depend on the processing

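With 5 of the 23 probe sets called in the combination against mock, the count was 3 with 1 probe set per gene (of 10 genes), 2 with the mean of a gene's probe sets, 3 with a robust variance, 3 with array weights, 3 with only these 2 groups, and between 2 and 6 when 1 array was left out. Against IRF5-4D (2 called) it was 1 with 1 probe set per gene, 1 with the mean of a gene's probe sets, and between 1 and 4 when 1 array was left out. Against IKKβ(EE) (2 called) it was 1 with the mean, with a robust variance and with only these groups, and between 1 and 3 when 1 array was left out. The 1 call between IRF5-4D and IKKβ(EE) became 0 with 1 probe set per gene, with the mean, with only these groups, at 2-fold and in each fit without 1 array. The numbers 1 and 3 were shared by all groups, but what they stand for is not stated. Over all probe sets, deviations of same-numbered arrays correlated between -0.05 and 0.30, and the main fit did not take the arrays as pairs. A shift shared by same-numbered arrays therefore stayed in its error. For MAFF on 36711_at in the combination against mock the SE was 0.57, and 0.17 with the block. Correlations over all probe sets cannot decide whether the arrays were paired for the 23 member probe sets. Of these, 14 had array 1 above array 3 in all 4 groups, against 8.01% of all. With the replicate number as a block, 10 probe sets were called against mock, 9 against IRF5-4D, 4 against IKKβ(EE) and 1 between IRF5-4D and IKKβ(EE); 3 of the 10 were lower, all JUND, and the same 3 were lower against IRF5-4D. Both MAFF probe sets passed against mock, IRF5-4D and IKKβ(EE) with the block, as BATF3 did with and without it. Against mock, FOS (limma adjusted p = 0.0384) and FOSL2 on 218880_at (limma adjusted p = 0.0476) also passed with the block. Against IRF5-4D, BATF (limma adjusted p = 0.0458) and JUNB (limma adjusted p = 0.0137) did so. The block also called 1 with IKKβ(EE) against mock (JUNB) and 1 in the interaction (MAFF on 36711_at).

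BATF3 kept its call against mock in 22 of 22 alternatives and MAFF on 36711_at in 15 of 22; MAFF on 205193_at kept it in 9, JUNB in 12 and FOSL2 on 228188_at in 20 of 21. No difference named here changed sign. Over all probe sets the counts ranged from 510 to 1919 for the combination against mock (1139 called), 32 to 174 for IRF5-4D (106 called), 35 to 317 for IKKβ(EE) (165 called), 64 to 954 against IRF5-4D (460 called), 202 to 1038 against IKKβ(EE) (607 called), 59 to 409 between the single constructs (264 called) and 1 to 128 for the interaction (34 called). The cause of these changes was not tested. A lone array left in a group is assumed to vary like the other groups.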

Other observations

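Genes outside the AP-1, BATF and MAF groups were checked as context. Of 6 genes of the NF-κB feedback loop, 1 rose in the combination against mock (2.74% of all genes called) and with IKKβ(EE) (0.425% called), NFKB1, which encodes the p105 precursor of the NF-κB subunit p50. NFKB1 rose by 1.24 (SE 0.13, limma adjusted p = 0.0014) in the combination and by 0.91 (SE 0.13, limma adjusted p = 0.0302) with IKKβ(EE). The median log2 difference of the 6 genes was 0.90 in both comparisons, and 0.40 with IRF5-4D, where 0 were called in limma and 2 had an unadjusted p under 0.05.

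Of 11 stress and handling genes, 2 rose in the combination against mock, where 2.74% of all genes were called. HSPA6, an inducible heat shock protein gene, rose by 1.01 (SE 0.12), and HSPB1, which encodes a small heat shock protein, by 1.12 (SE 0.22). HSPA6 also rose with IRF5-4D, by 1.89 (SE 0.12), and was 0.88 lower in the combination than with IRF5-4D on the log2 scale. Of 10 reference genes, 0 were called against mock in limma and 0 had an unadjusted p under 0.05, with medians between 0.03 and 0.07.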
